A study of Mus musculus with 20 samples.

Results

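The genes described are the 3 chains of complement C1q and 5 further genes of the complement system, measured in mouse neocortex at 2 ages and after long-term vitamin E feeding. They were chosen by name, as every probe set whose platform annotation names C1qa, C1qb, C1qc, C3, C3ar1, Serping1, Itgam, Itgb2 or Cd59a, with older symbols brought up to date by gene ID. The annotation used here names a probe set for 8 of these 9 genes, 13 probe sets in all, out of 18193 genes with a probe set of their own, and C3 was not analysed here. RNA from the neocortex of 20 male B6C3F1 mice (B6/C3H F1 hybrid), housed singly, was hybridised to 1 Affymetrix array per mouse. The mixture group (5 mice, 30 months old) had eaten 500 mg/kg of α-tocopherol and 500 mg/kg of γ-tocopherol since 15 months of age. The α-tocopherol group (5 mice, 30 months) had eaten 1000 mg/kg of α-tocopherol since the same age. The old control group (5 mice, 30 months) and the young control group (5 mice, 5 months) ate the control diet.

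C1q is the recognition molecule of the classical complement pathway: its A, B and C chains assemble into a bouquet of globular heads that binds antibody complexes, dying cells and synapses, and docks the proteases that start the cascade. The cascade cleaves C3, whose small fragment C3a acts on the receptor C3ar1 and whose surface-bound fragments are taken up through complement receptor 3, a pair of the integrin chains Itgam and Itgb2. Serping1 (C1 inhibitor) blocks the first proteases, and Cd59a blocks assembly of the membrane attack complex at the other end. In the brain C1q is made mainly by microglia, the resident macrophages, which also carry complement receptor 3, and the pathway is known for tagging synapses for removal.

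C1qb, C1qc and C1qa are consecutive protein-coding genes on chromosome 4 in the RefSeq annotation (GRCm38.p6). The RefSeq promoter table, which gives 250 bases before to 50 bases after a gene's start, holds 5 of the 8 genes (C1qb, C1qc, C3ar1, Cd59a and Itgam). The C1qb and C1qc windows, at chr4:136886151-136886450 and chr4:136892865-136893164 on the minus strand, are printed 5′ to 3′ because both chains belong to this cluster and rose together with age. Capitals mark matches to the motifs searched.
C1qb: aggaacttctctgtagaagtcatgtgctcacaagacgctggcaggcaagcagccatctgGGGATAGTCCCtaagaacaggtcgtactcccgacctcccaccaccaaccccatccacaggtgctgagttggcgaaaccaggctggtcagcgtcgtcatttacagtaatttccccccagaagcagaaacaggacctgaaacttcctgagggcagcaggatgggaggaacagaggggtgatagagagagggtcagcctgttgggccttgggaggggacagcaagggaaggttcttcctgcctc
C1qc: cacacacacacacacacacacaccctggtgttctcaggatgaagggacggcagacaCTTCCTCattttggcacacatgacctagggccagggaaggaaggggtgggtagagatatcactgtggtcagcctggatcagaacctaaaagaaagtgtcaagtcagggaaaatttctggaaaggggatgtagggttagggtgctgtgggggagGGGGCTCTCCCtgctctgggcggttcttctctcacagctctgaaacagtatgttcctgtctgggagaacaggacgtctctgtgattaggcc
The motifs, searched on both strands, were the ETS/PU.1 core GAGGAAG, the TATA box TATAAA, the C/EBP site TTGCNNAA, the STAT element TTCNNNGAA and the NF-kB core (with its inner bases left free). The C1qc window holds GAGGAAG on the opposite strand, beginning 194 bases before the start, and the C1qb window does not hold it, while 13.4% of all 32544 RefSeq promoters of this length do. Both windows hold the NF-kB core, in overlapping copies on the 2 strands, as do all 5 windows of these genes and 51.0% of all promoters. Neither holds TATAAA (13.6% of promoters), TTGCNNAA (10.8%) or TTCNNNGAA (8.33%).

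Values are the deposited signals, linear brightness summaries that were scaled so that the 2% trimmed mean of each array is 1000. Differences were tested with limma on log2(signal + 16) over the 27022 probe sets in the top 60% by mean signal (a limit of 184), two-sided, with Benjamini-Hochberg adjustment over all of them and a threshold of 0.05. Of the 13 probe sets, 12 were bright enough to be tested. Array medians were lower in old groups (292.2 to 331.5 in mixture, 280.3 to 317.7 in α-tocopherol and 283.7 to 313.3 in old control mice, against 316.1 to 331.2 in young controls). The β-actin 3′/5′ ratio, a measure of RNA integrity, was 1.22 to 1.60 in mixture, 1.43 to 2.36 in α-tocopherol and 1.73 to 2.52 in old control mice, against 1.42 to 1.74 in young controls. The 18S rRNA control signal was 707.6 to 1138 in mixture, 655.3 to 2504 in α-tocopherol and 1184 to 2068 in old control mice. In young controls it was 421.1 to 794.2, below every old control, and no fit held it as a covariate. Of 8 neocortical excitatory neuron markers 7 had a probe set and all 7 were bright enough to be tested. So were 4 of 6 striatal markers, all 4 that had a probe set, and 4 of 6 hippocampal markers. Passing this limit therefore does not tell these regions apart. In bulk tissue, fewer cells of a type and less RNA per cell cannot be told apart.

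All 3 C1q chains were about 2-fold higher in old than in young controls. Each of their 5 probe sets passed the test with no overlap between the groups, and the share of all probe sets without overlap was not computed. C1qa, the A chain, gave signals of 5061.8, 5249.5, 6447.4, 5256.4 and 6341.7 in old controls 1 to 5, against 2714.4, 2992.3, 3045.8, 2959.5 and 2454.7 in young controls 1 to 5. The dimmest old control was therefore well above the brightest young control. The log2 difference was 0.99 ± 0.12 (SE, n = 5 mice each; limma adjusted p = 1.84e-05), 1.99-fold. C1qc, the C chain, gave 3439.9, 3687.9, 4027.7, 3357.8 and 4584.0 in old controls, against 2048.6, 1829.2, 1680.7, 1965.8 and 1704.5 in young controls. Again every old control was above every young control, with a log2 difference of 1.04 ± 0.12 (SE, n = 5 each; limma adjusted p = 1.84e-05), 2.05-fold.

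C1qb, the B chain, was read by 3 probe sets, 2 of which carry the suffix that Affymetrix gives to probe sets that may cross-hybridise (_x_at). The probe set without it, 1417063_at, gave 2215.1, 2503.5, 2867.0, 2146.2 and 2254.9 in old controls, against 1314.5, 1021.2, 1111.8, 1068.9 and 870.9 in young controls. Its log2 difference of 1.15 ± 0.11 was the highest of all members (SE, n = 5 each; limma adjusted p = 2e-06), 2.21-fold. The brightest C1qb probe set, 1437726_x_at, gave 2417.1, 2810.1, 3013.9, 2599.5 and 2474.4 in old controls, against 1334.3, 1475.6, 1124.8, 1296.7 and 1429.2 in young controls. It differed by 0.99 ± 0.18 on the log2 scale (limma adjusted p = 0.000998). The third, 1434366_x_at, ranged from 1917.5 to 2304.4 in old controls, against 1162.2 to 1404.2 in young controls, a log2 difference of 0.74 ± 0.10 (limma adjusted p = 9.18e-05), 1.67-fold. All 3 probe sets thus had the same direction and differed in size.

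Of the 12 member probe sets tested, 5 were higher and 0 lower in old than in young controls, all 5 of them C1q, while 18.9% of all probe sets were called in this comparison (9.33% as higher). The median log2 difference of the 12 was 0.44, against -0.048 over all probe sets tested. Of all probe sets, 99.4% had a smaller difference than C1qa, 99.6% a smaller one than C1qb (1417063_at) and 99.5% a smaller one than C1qc. The members were chosen with earlier results of these data known, so these ranks are not separate evidence. When the fit also held the log2 of the β-actin ratio, the differences were 0.88 for C1qa, 1.09 for C1qb (1417063_at) and 0.99 for C1qc, all 5 C1q probe sets still passing, with 2028 calls over all probe sets, against 5097 without the covariate.

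**Figure D1:**
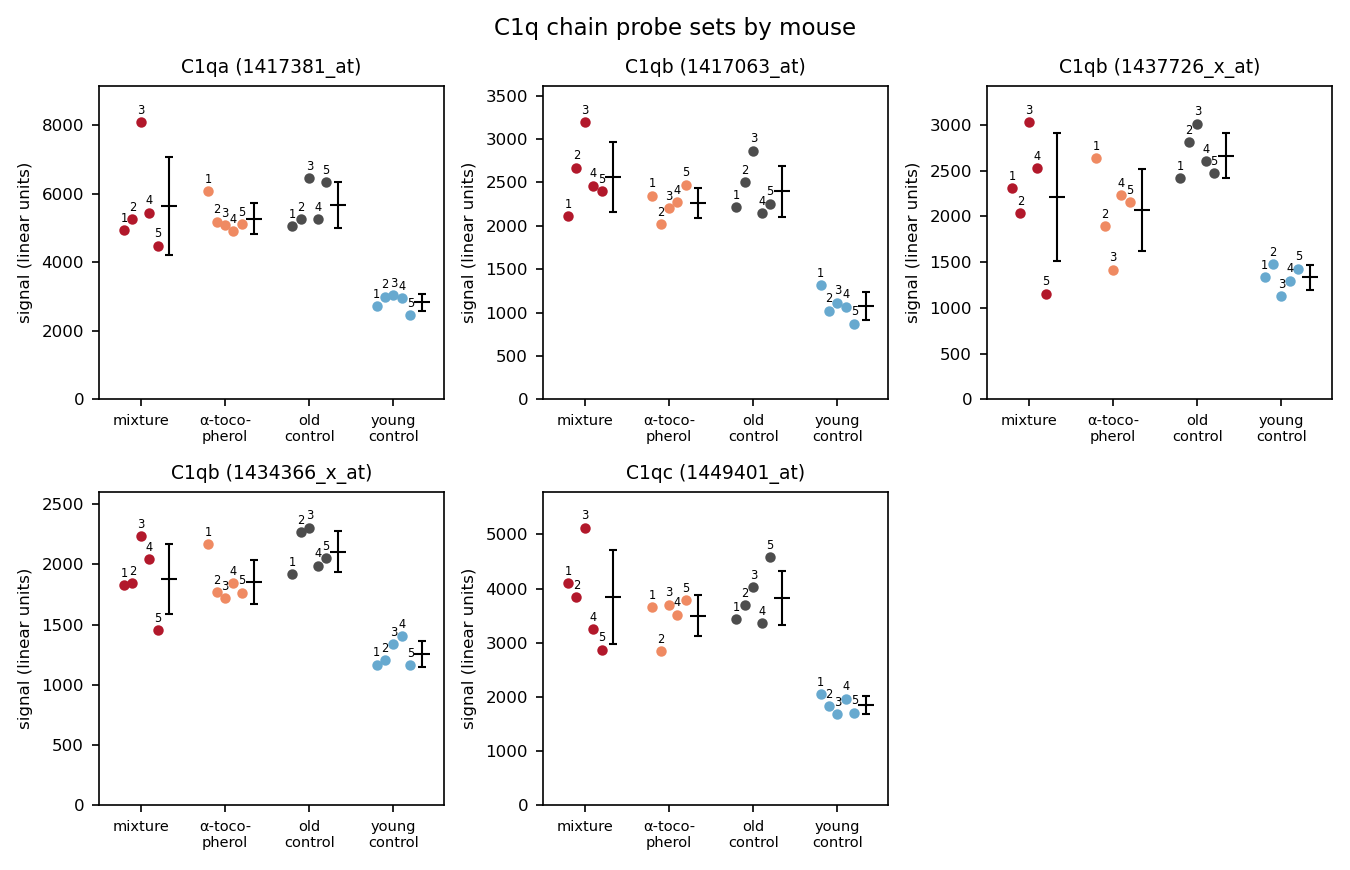
Signal (linear units, axis from 0) of the 5 C1q probe sets in each mouse, numbered 1 to 5 within its group, with the mean and SD of the group beside the points. For C1qa the lowest old mouse, at 4484.9, lies above the highest young control, at 3045.8, and for C1qb 1437726_x_at mixture mouse 5, at 1153.4, lies within the range of young controls.

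None of the 3 chains could be separated from the level of old controls in either supplemented group. C1qa gave 4938.0, 5247.5, 8091.9, 5443.5 and 4484.9 in mixture mice 1 to 5 and 6076.7, 5182.8, 5072.8, 4915.1 and 5119.9 in α-tocopherol mice 1 to 5, beside the old controls above. Mixture mouse 3 was the brightest of the 20 arrays, the 3 old groups overlapped, and mixture mice 1 and 5 lay below every old control. The log2 difference from old controls was -0.03 for the mixture (95% CI -0.27 to 0.21; limma adjusted p = 0.913) and -0.10 for α-tocopherol (95% CI -0.34 to 0.14; limma adjusted p = 0.932). These intervals do not reach the age difference of C1qa in either direction.

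C1qc gave 4098.2, 3844.3, 5122.2, 3248.4 and 2871.4 in mixture mice and 3657.9, 2846.4, 3699.1, 3514.9 and 3786.5 in α-tocopherol mice. The groups overlapped with old controls, at log2 differences of -0.01 for the mixture (95% CI -0.27 to 0.24) and -0.12 for α-tocopherol (95% CI -0.38 to 0.13). C1qb by 1417063_at gave 2107.5, 2668.1, 3195.2, 2460.5 and 2397.3 in mixture mice and 2347.7, 2014.4, 2202.8, 2271.2 and 2472.0 in α-tocopherol mice. Its log2 difference from old controls was 0.09 for the mixture (95% CI -0.14 to 0.32) and -0.08 for α-tocopherol (95% CI -0.31 to 0.15).

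The _x_at probe sets of C1qb were lower on average in supplemented mice, without passing the test. By 1437726_x_at the mixture mice had 2309.6, 2036.6, 3030.4, 2524.5 and 1153.4, and the α-tocopherol mice 2638.2, 1895.6, 1417.6, 2230.9 and 2152.5. Mixture mouse 5 and α-tocopherol mouse 3 were the low ones, both within the range of young controls. The log2 difference from old controls was -0.33 for the mixture (95% CI -0.71 to 0.04; limma adjusted p = 0.32) and -0.39 for α-tocopherol (95% CI -0.76 to -0.01; limma adjusted p = 0.883, the unadjusted p being under 0.05). By 1434366_x_at the mixture mice ranged from 1455.2 to 2235.5 and the α-tocopherol mice from 1719.9 to 2166.2, with log2 differences of -0.17 and -0.18 from old controls.

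Because the C1qb probe sets are annotated to the same gene and lie on the same array, their log2 ratio was compared between groups. The _x_at probe sets may also read other transcripts, and their part in the ratio was not tested. The ratio of 1437726_x_at to 1417063_at was 0.13, -0.39, -0.08, 0.04 and -1.05 in mixture mice and 0.17, -0.09, -0.63, -0.03 and -0.20 in α-tocopherol mice. It was 0.12, 0.17, 0.07, 0.28 and 0.13 in old controls, against 0.02, 0.52, 0.02, 0.28 and 0.70 in young controls. The SD of this ratio was 0.48 in mixture, 0.297 in α-tocopherol and 0.08 in old control mice, against 0.305 in young controls. The old controls were thus the narrowest group, and mixture mouse 5 was the lowest value. The ratio of 1434366_x_at to 1417063_at averaged -0.45 ± 0.21 in mixture, -0.29 ± 0.14 in α-tocopherol and -0.18 ± 0.08 in old control mice, against 0.23 ± 0.23 in young controls (SD, n = 5 each). Of 12 two-sided exact permutation tests of these ratios, over both probe sets and the 6 pairs of groups, the smallest p was 0.00794, for 1434366_x_at in mixture against young control mice, and none passed after adjustment over the 12 (lowest adjusted exact p = 0.0681). That p is the smallest that 5 against 5 mice can give in an exact test, so 1 comparison on its own, however far apart its groups, could not pass over 12 tests (0.00794 times 12 is 0.0952). For 1434366_x_at the unadjusted exact p was also under 0.05 for α-tocopherol (0.0159) and old controls (0.0317) against young controls. It was 0.0397 for the mixture against old controls. For 1437726_x_at it was 0.0238 for the mixture and 0.0397 for α-tocopherol against old controls, and 0.0397 for α-tocopherol against young controls. The other comparisons gave an exact p of 0.0556 to 0.667.

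**Figure D2:**
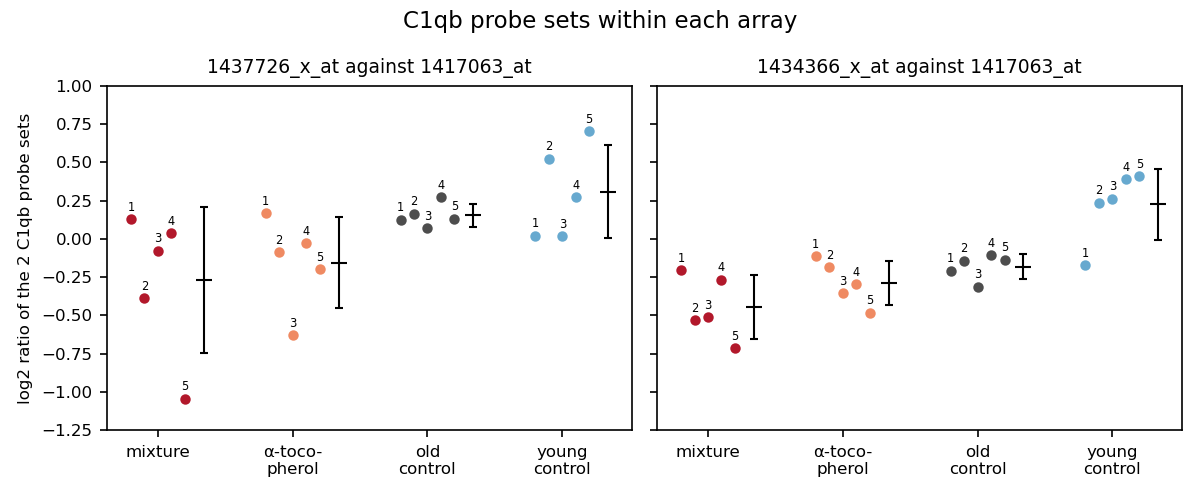
Log2 ratio of each _x_at probe set of C1qb to probe set 1417063_at within each array, by mouse, with group mean and SD. The old control mice lie close together and mixture mouse 5 is lowest in both panels, at -1.05 and -0.71.

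Against young controls, supplemented old mice showed the C1q difference as well; these comparisons share the young controls with the age comparison and are given beside it, not as separate evidence. C1qa was higher by 0.96 on the log2 scale in the mixture group (limma adjusted p = 2.23e-05) and by 0.89 in the α-tocopherol group (limma adjusted p = 6.99e-05). C1qb by 1417063_at was higher by 1.24 in the mixture group (limma adjusted p = 7.02e-07) and by 1.07 in the α-tocopherol group (limma adjusted p = 4.99e-06). C1qc was higher by 1.03 in the mixture group (limma adjusted p = 1.9e-05) and by 0.91 in the α-tocopherol group (limma adjusted p = 8.26e-05). In both comparisons 6 of the 12 member probe sets passed, all as higher: the 5 of C1q and Itgb2. Over all probe sets 17.1% were called for the mixture (9.07% higher) and 18.6% for α-tocopherol (9.31% higher). Calls by 1437726_x_at, at 0.66 for the mixture (limma adjusted p = 0.0156) and 0.60 for α-tocopherol (limma adjusted p = 0.0237), depended on single mice. The mixture call was lost without mixture mouse 3 (0.53, limma adjusted p = 0.0523), and the α-tocopherol call was lost without α-tocopherol mouse 1 (0.51, limma adjusted p = 0.0672), α-tocopherol mouse 4 (0.57, limma adjusted p = 0.0518) or young control 3 (0.55, limma adjusted p = 0.0582).

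Among the 15 old mice, with each group's mean removed, mice with a high value of one chain tended to have high values of the others. C1qa and C1qc, each by its own probe set, had Pearson r = 0.74 (permutation p = 0.00196, adjusted 0.00303 over the 3 pairs) and Spearman rho = 0.44 (adjusted permutation p = 0.159). C1qa and C1qb (1437726_x_at) had r = 0.66 (adjusted permutation p = 0.00303) and rho = 0.57 (adjusted permutation p = 0.0855). C1qb and C1qc had r = 0.54 (adjusted permutation p = 0.0342) and rho = 0.33 (adjusted permutation p = 0.227). These permutations moved mice across the 3 groups, though the log2 spread of C1qa was wider in mixture (SD 0.325) than in α-tocopherol mice (SD 0.12). The permutation p-values may therefore be too small. The relation rests in part on single mice: without α-tocopherol mouse 1 and mixture mouse 3, r was 0.58 for C1qa with C1qc and 0.48 for C1qa with C1qb, and without α-tocopherol mouse 3 and mixture mouse 5 it was 0.50 for C1qb with C1qc. With 1417063_at in place of the brightest C1qb probe set, a choice made after the values were seen, r was 0.69 with C1qa and 0.54 with C1qc, and the pair with C1qc was at 0.27 without mixture mouse 3 and old control 3. Mixture mouse 3 had the highest signal of its group by all 5 C1q probe sets.

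Of the receptor genes, Itgb2 passed the test in both supplemented groups against young controls, and no other receptor probe set tested passed in any comparison. Itgb2, the β2 integrin chain of complement receptor 3, gave 510.2, 459.4, 471.9, 276.0 and 306.6 in old controls, against 360.9, 91.4, 374.0, 260.1 and 298.6 in young controls. The groups overlapped, with 3 of 5 old controls above every young control and a log2 difference of 0.61 ± 0.27 (SE; limma adjusted p = 0.108). It gave 543.1, 540.6, 559.0, 591.2 and 307.2 in mixture mice and 501.8, 461.4, 526.0, 449.5 and 423.9 in α-tocopherol mice. All 5 α-tocopherol mice and 4 of 5 mixture mice were above every young control. Itgb2 was higher than in young controls by 0.94 ± 0.27 in the mixture group (SE; limma adjusted p = 0.0194) and by 0.86 ± 0.27 in the α-tocopherol group (SE; limma adjusted p = 0.0273). The supplemented groups were not separable from old controls, at 0.32 for the mixture (95% CI -0.23 to 0.87; limma adjusted p = 0.54) and 0.25 for α-tocopherol (95% CI -0.30 to 0.80; limma adjusted p = 0.923). Young control 2, at 91.4, moved these values: without it the α-tocopherol difference from young controls was 0.54 and no longer passed (limma adjusted p = 0.0662), and it also missed the threshold without α-tocopherol mouse 1 (limma adjusted p = 0.0512) or 3 (limma adjusted p = 0.0589). The age difference without young control 2 was 0.28, and that of the mixture group 0.61.

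Itgam, the α chain that pairs with Itgb2, gave 232.0, 238.1, 319.5, 212.6 and 349.8 in old controls, against 199.6, 252.9, 207.9, 159.6 and 292.0 in young controls. The ranges overlapped and the log2 difference of 0.27 ± 0.18 did not pass (SE; limma adjusted p = 0.319). Itgam ranged from 252.0 to 365.0 in mixture mice and from 185.2 to 320.5 in α-tocopherol mice, log2 differences of 0.46 (limma adjusted p = 0.0858) and 0.28 (limma adjusted p = 0.289) from young controls. The chains of the receptor thus had the same sign in all 3 old groups, and Itgb2 in supplemented mice alone passed.

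C3ar1, the receptor of C3a, was read by 3 dim probe sets that did not share a direction with age. By 1419482_at it gave 394.5, 198.5, 142.5, 277.2 and 267.5 in old controls, against 362.9, 288.3, 461.9, 384.9 and 191.3 in young controls, a log2 difference of -0.40 ± 0.22 (SE; limma adjusted p = 0.222). By 1419483_at the range was 200.0 to 342.6 in old controls, against 164.4 to 292.2 in young controls, a log2 difference of 0.21 ± 0.20 (SE; limma adjusted p = 0.494). The third, 1442082_at, was below the limit of the test, with 75.3 to 145.7 in old controls, against 18.2 to 108.0 in young controls. In a fit without that limit its log2 difference was 0.97 ± 0.33 (SE; limma adjusted p = 0.0569), and 1.20 for the mixture against young controls (limma adjusted p = 0.0236). The mixture mice had 362.9, 297.7, 417.5, 342.6 and 498.5 by 1419482_at, 2 of them above every old control. Their log2 difference of 0.61 from old controls (95% CI 0.14 to 1.07; limma adjusted p = 0.126, the unadjusted p being under 0.05) was the largest between old groups among the members, and 1419483_at gave 0.18 for the same comparison (limma adjusted p = 0.671).

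No probe set of the inhibitors passed in any comparison. Serping1, the inhibitor of the C1 proteases, gave 573.0, 736.2, 999.7, 651.9 and 570.9 in old controls, against 531.7, 625.9, 632.8, 614.5 and 593.7 in young controls. Old control 3 was far above the others, and the log2 difference was 0.20 ± 0.13 (SE; limma adjusted p = 0.268), and 0.07 without that mouse. The mixture mice had 765.0, 761.5, 695.9, 814.3 and 742.0, all above every young control, and a log2 difference of 0.33 ± 0.13 that did not pass (SE; limma adjusted p = 0.0744). The α-tocopherol mice ranged from 614.7 to 848.0, a log2 difference of 0.29 from young controls (limma adjusted p = 0.111).

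Cd59a, the membrane inhibitor of the attack complex, ranged from 1088.3 to 1501.5 by 1418710_at in old controls, against 970.1 to 1464.7 in young controls. The log2 difference was 0.16 ± 0.11 (SE; limma adjusted p = 0.319). By 1429830_a_at it ranged from 442.1 to 565.8 in old controls, against 389.2 to 572.6 in young controls, a difference of 0.03 ± 0.16 (SE; limma adjusted p = 0.915) whose sign turned without old control 2 (-0.01) or young control 3 (-0.05). By 1418710_at the supplemented groups ranged from 1194.2 to 1416.8 in mixture and from 970.3 to 1391.7 in α-tocopherol mice. By 1429830_a_at the mixture mice ranged from 320.5 to 661.2, beyond both control ranges at either end. The α-tocopherol mice ranged from 418.8 to 574.9 by this probe set. With array medians set equal, which moved the median of all probe sets from -0.048 to 0.088, 3 more member probe sets passed with age: Serping1 at 0.34 (limma adjusted p = 0.0451), Cd59a (1418710_at) at 0.30 (limma adjusted p = 0.0471) and Itgb2 at 0.74 (limma adjusted p = 0.049). Under that scaling 84.6% of all calls were higher, against 49.4% as deposited.

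**Figure D3:**
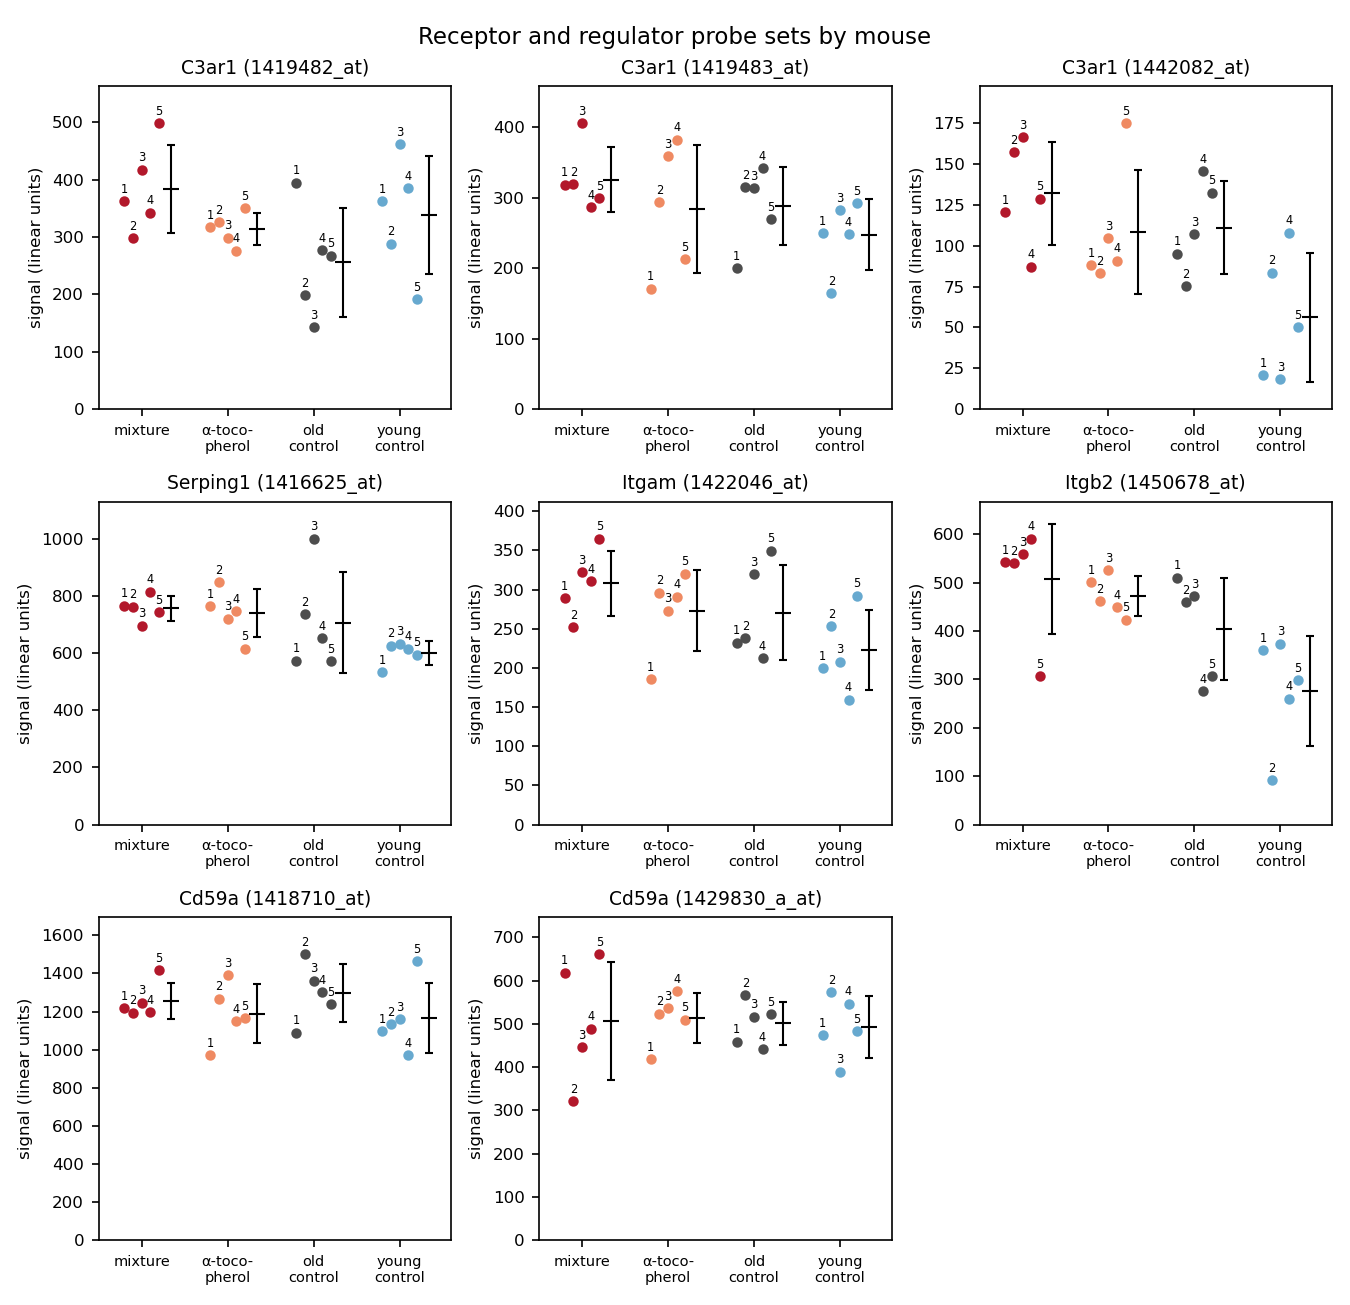
Signal (linear units, axis from 0) of the 8 probe sets of the receptors and inhibitors in each mouse, numbered within its group, with group mean and SD. The groups overlap in most panels; young control 2 is low for Itgb2 (91.4) and old control 3 is high for Serping1 (999.7).

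Between the old groups no member probe set passed. For the mixture against old controls 0 of 12 passed (1 had an unadjusted p under 0.05), where 3.59% of all probe sets were called. For α-tocopherol against old controls 0 of 12 passed (1 with an unadjusted p under 0.05), where 0% of all probe sets were called by limma, 1473 had an unadjusted p under 0.05 and the lowest adjusted p was 0.883. For the mixture against α-tocopherol 0 of 12 passed and 0 had an unadjusted p under 0.05, where 0% of all were called and 2266 had an unadjusted p under 0.05 (lowest limma adjusted p = 0.176). The median member difference was 0.04 for the mixture against old controls, -0.07 for α-tocopherol against old controls and 0.08 for the mixture against α-tocopherol, beside 0.032, 0.007 and 0.019 over all probe sets. The 95% interval lay within a 1.5-fold difference either way for 8 of 12 probe sets in the mixture against old controls, 9 of 12 in α-tocopherol against old controls and 9 of 12 in the mixture against α-tocopherol. It lay within 2-fold for 11, 12 and 12 of them. Differences that lie inside a probe set's own interval were not resolved. Mixture against α-tocopherol differences of the C1q chains were 0.07 for C1qa (95% CI -0.17 to 0.31), 0.17 for C1qb by 1417063_at (95% CI -0.06 to 0.40) and 0.11 for C1qc (95% CI -0.14 to 0.36).

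**Figure D4:**
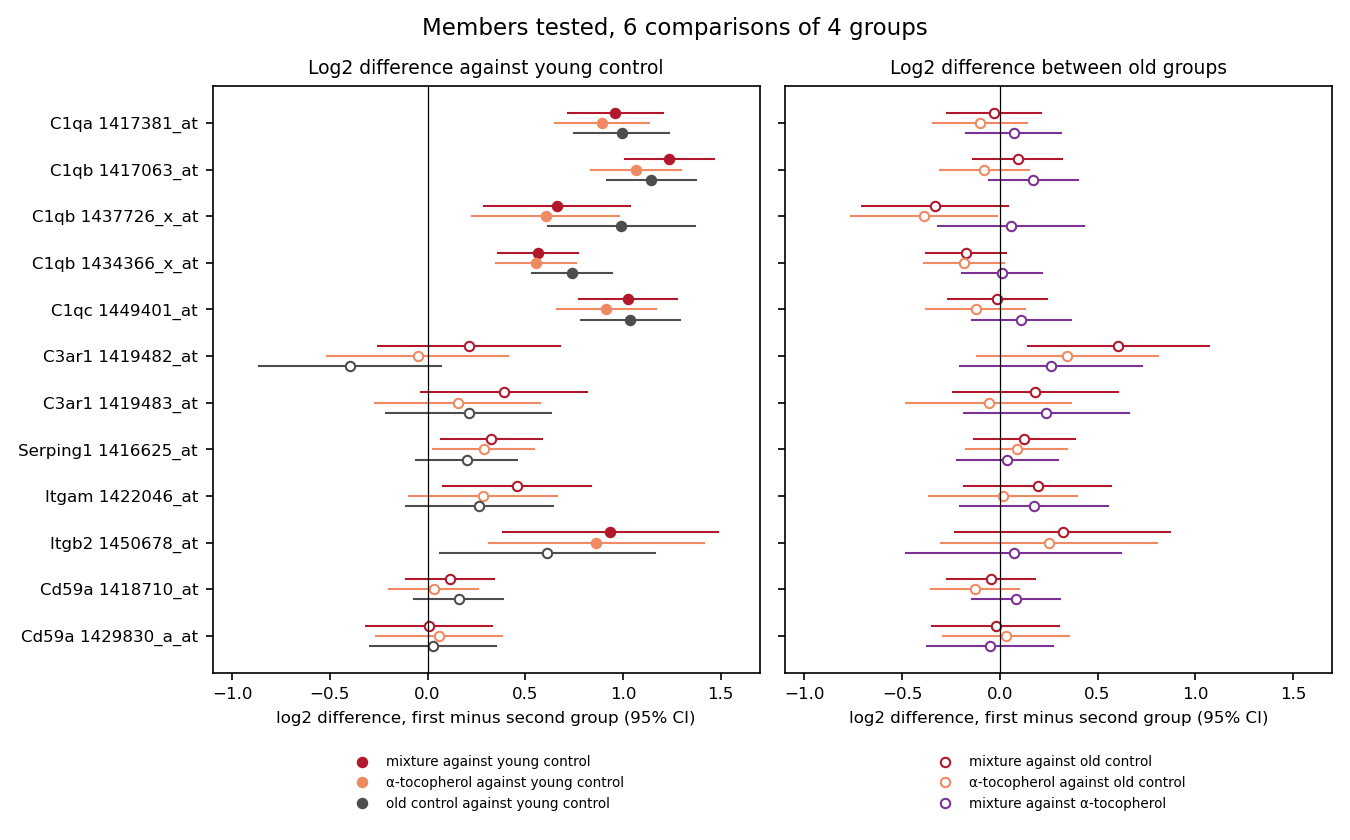
Log2 difference (first minus second group) with 95% confidence interval of the 12 member probe sets tested, each old group against young controls at left and the old groups against each other at right; filled circles passed the test, and legend symbols show colour only. The C1q differences from young controls lie between 0.56 and 1.24, and no circle is filled at right.

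Of 44 other complement genes listed, 34 had a probe set and 21 were bright enough to be tested, 1 probe set per gene. With age 3 rose and 2 fell (median log2 difference 0.077, against -0.022 over the 13351 genes tested, of which 1566 rose and 1241 fell). Vitronectin (Vtn), an inhibitor of the terminal pathway and an adhesion protein, gave 2794.6 to 3168.5 in old controls, against 1457.5 to 2299.3 in young controls. It rose by 0.64 ± 0.11 (SE; limma adjusted p = 0.000542), and a dimmer Vtn probe set gave 0.26 and did not pass. Clusterin (Clu), a chaperone that also blocks the attack complex, gave 24093.2 to 31663.7 in old controls, against 17420.4 to 19692.7 in young controls. It rose by 0.50 ± 0.10 (SE; limma adjusted p = 0.00132) and its 4 probe sets all passed, though with that ratio in the fit it missed (0.31, limma adjusted p = 0.0577). Itgax, the α chain of complement receptor 4, gave 293.4, 265.9, 358.3, 296.0 and 418.4 in old controls, against 214.6, 66.2, 129.9, 228.9 and 174.8 in young controls. Its groups did not overlap and it rose by 1.02 ± 0.25 (SE; limma adjusted p = 0.00707); with the covariate it missed as well (0.93, limma adjusted p = 0.0716). Its mean of 150.8 in young controls is below the limit of 184, so it was tested only because the old groups were brighter.

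The genes that fell were Cd46, a membrane cofactor of C3b cleavage, at -0.56 (limma adjusted p = 0.0157), and Fcnb, a ficolin of the lectin pathway, at -0.80 (limma adjusted p = 0.0273). Cd46 missed the threshold with array medians set equal (-0.42, limma adjusted p = 0.0574) and with the covariate (limma adjusted p = 0.0589), and Fcnb missed it after quantile normalization (limma adjusted p = 0.054), cyclic loess (limma adjusted p = 0.0558) and with the covariate (limma adjusted p = 0.115). The next by p did not pass: C1qbp, a mitochondrial protein that binds C1q, gave 0.20 by its brightest probe set and -0.33 by another that passed (limma adjusted p = 0.0132). Masp2, a protease of the lectin pathway, gave -0.37, and calreticulin (Calr), a chaperone that binds C1q, gave 0.18. C1ra, a protease of the C1 complex, gave 0.40 (limma adjusted p = 0.0914), and the ficolin Fcna gave 0.42. C1ra and Fcna passed under each of the 3 other scalings (limma adjusted p = 0.0255 to 0.0316). With array medians set equal, C1qbp (0.34, limma adjusted p = 0.00606) and Calr (0.32, limma adjusted p = 0.00602) also passed, C1qbp also passed with the replicate block (limma adjusted p = 0.0469), and Masp2 passed without old control 3 (limma adjusted p = 0.042).

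In the supplemented mice Clu fell to 17393.1 to 24603.5 in the mixture group, against 24093.2 to 31663.7 in old controls, by 0.36 on the log2 scale (limma adjusted p = 0.0373), and C1qbp fell by 0.26 (limma adjusted p = 0.0472). These were the 2 calls among the 21 genes for that comparison, in which 137 of the 13351 genes tested were called higher and 356 lower. Both were lost after quantile normalization (Clu -0.06, C1qbp -0.11), after cyclic loess, with the β-actin covariate and without old control 3. For α-tocopherol against old controls 0 of 21 passed by limma (1 had an unadjusted p under 0.05).

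**Figure D5:**
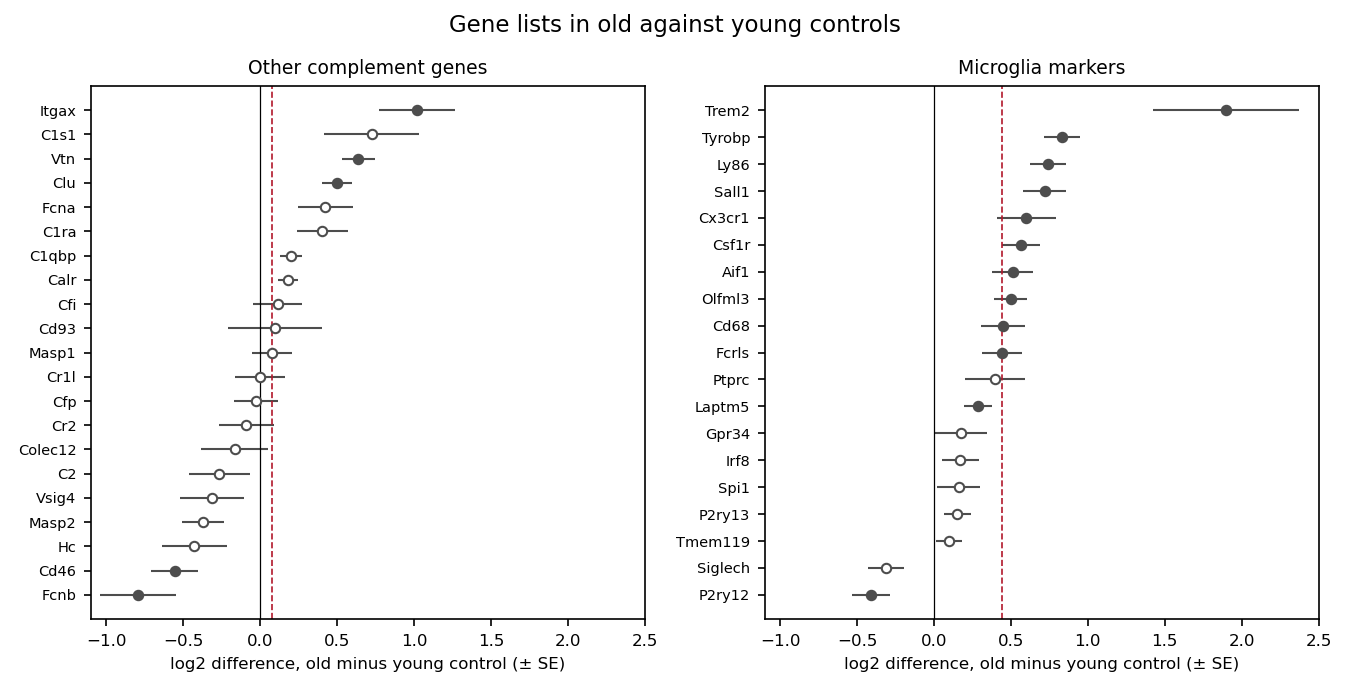
Log2 difference (old minus young control, with SE) of the 21 other complement genes and the 19 microglia markers tested, ordered by size; filled circles passed the test and the dashed line is the list median, 0.077 and 0.443. Itgax is highest among complement genes at 1.02, and P2ry12 is lowest among microglia markers at -0.41.

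Microglia markers moved with age too, and so did markers of other cell types. Of 20 microglia markers listed, 19 had a probe set and were tested, of which 11 rose and 1 fell (median 0.443). With age 1566 of all 13351 genes tested rose and 1241 fell. Of the markers, 7 rose with the β-actin covariate and 8 without old control 3, and 0 fell in either. Tyrobp, an adaptor of microglial receptors, rose by 0.83 ± 0.11 (SE; limma adjusted p = 0.000116), Ly86 by 0.74 ± 0.12 (SE; limma adjusted p = 0.000307) and Sall1, a microglial transcription factor, by 0.72 ± 0.14 (SE; limma adjusted p = 0.00158). Olfml3 rose by 0.50 ± 0.11 (SE; limma adjusted p = 0.00281), while Tmem119, Irf8, Spi1 and Gpr34 gave 0.10 to 0.18 and did not pass. P2ry12, a purinergic receptor, fell by 0.41 (limma adjusted p = 0.0248) but missed the threshold with array medians set equal (-0.27), with the covariate (-0.08) and without old control 3 (-0.32). The summed signal of the list was 22930 to 32580 in mixture, 24550 to 28200 in α-tocopherol and 25230 to 28470 in old control mice, against 18940 to 20140 in young controls; the part of this shift in the C1q difference was not tested. Mixture mouse 3 had the highest sum and mixture mouse 5 the lowest of the old mice. Against old controls the mixture group had 1 of the 19 markers higher, P2ry12 at 0.50 (limma adjusted p = 0.0304), and 0 lower, and the α-tocopherol group 0 either way by limma (2 with an unadjusted p under 0.05). Over the 13351 genes tested, 137 were called higher and 356 lower for the mixture, and 0 either way for α-tocopherol. The P2ry12 call was lost under the 3 other scalings (limma adjusted p = 0.0688 to 0.0741), with the covariate (0.10, limma adjusted p = 0.962) and without old control 3 (limma adjusted p = 0.0839).

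All 8 astrocyte markers rose with age (median 0.435), Gfap, the astrocyte filament protein, by 1.82 ± 0.19 (SE; limma adjusted p = 4.17e-06). Their summed signal was 76590 to 105800 in mixture, 86710 to 108100 in α-tocopherol and 92390 to 106600 in old control mice, against 70680 to 73690 in young controls. Of the oligodendrocyte markers 4 of 6 tested rose (median 0.362) and of the neuron markers 4 of 6 (median 0.242). Beside these lists, 1566 of all 13351 genes tested rose with age. The counts depend on the processing: after quantile normalization 5 of 8 astrocyte, 3 of 6 oligodendrocyte and 1 of 6 neuron markers rose, and with the β-actin covariate 4, 2 and 0 rose. The part of these shifts in the C1q difference was not tested.

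Markers of blood-derived and border myeloid cells, which can also express complement receptors, showed no call as higher. Of 12 listed 11 had a probe set and 5 were bright enough to be tested. Of these 0 rose and 2 fell (Mrc1 by 0.61 and Pf4 by 0.42), where 1566 of all 13351 genes rose and 1241 fell. The summed signal of these myeloid markers was 3583 to 4169 in mixture, 3386 to 4599 in α-tocopherol and 3184 to 9381 in old control mice, against 3362 to 3864 in young controls. Old control 3 held the highest of these, and without it C1qa differed from young controls by 0.95, C1qb (1417063_at) by 1.08 and C1qc by 1.02. The choroid plexus list, whose sum was 32070 to 39180 in mixture, 18640 to 48320 in α-tocopherol and 10130 to 52460 in old control mice, against 28790 to 42560 in young controls, varied most among old controls, and its part in the member values was not tested.

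The genes whose values followed the C1q chains most closely over the 15 old mice, by Pearson r to the mean of the 3 chains after removal of group means, were Cnn3 (r = 0.97), Kdm6b (0.91), Slc14a1 (0.89), Dis3l (0.89) and Snrpe (0.88), out of 13348 genes. They share their arrays with C1q, and without mixture mice 3 and 5 the values were 0.86, 0.68, 0.61, 0.78 and 0.75 in the same order. With age Cnn3 rose by 0.50, Slc14a1 by 0.93, Dis3l by 0.58 and Snrpe by 0.40, and Kdm6b gave 0.11 and did not pass. Of the 19 microglia markers 16 had a positive r, from -0.46 (P2ry12) to 0.74 (Tyrobp) with a median of 0.35, beside 0.02 over all genes. The astrocyte marker Gfap, at r = 0.75, was above every one of them. No r is given here for the other astrocyte markers, so Gfap does not stand for that list. Among the members Itgb2 had r = 0.45, Serping1 0.04, Itgam -0.08, C3ar1 -0.32 and Cd59a -0.38.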

How the data were processed

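Neocortex RNA of 20 mice in 4 groups was measured on 1 Affymetrix array per mouse. Per the labels' protocols, poly(A) RNA was extracted with TRIZOL, reverse transcribed with an oligo-dT primer and labelled as biotin cRNA. The values are intensity signals that the authors deposited after processing with GCOS, per the submitters' processing notes; from the values, they are linear and scaled to a 2% trimmed mean of 1000 per array. The scanner files were not used here. The annotation, updated by gene ID through RefSeq GRCm38.p6, gives 1 symbol to 34945 probe sets, several to 932 and none to 9160. Control probe sets (64) were left out.

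Differences were fitted with limma 3.58.1 (R 4.3.3) on log2(signal + 16) at probe set level over all 20 arrays, with 16 residual degrees of freedom, an intensity trend in eBayes and 6 contrasts. The added 16 makes fold changes of dim probe sets too small. The fit was tested on simulated data. Correlations used 100000 resamples (scipy 1.17.1). The number of arrays limits the precision. The labels state separate animals.

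Named are all members with every probe set, the 10 other complement genes with the smallest p with age, the 4 markers of a list with the smallest p (further markers were named after their values were seen) and the 5 genes most like the C1q chains. The members and lists were chosen with earlier results of these data known.

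Alternatives were other pseudocounts, scalings and filters, 1 probe set per gene, no intensity trend, only the groups compared, the β-actin ratio as a covariate, a replicate block, and leaving out mice.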

Additional observations from a re-analysis of the deposited data

Results flagged for a closer look

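Of 52 sets of 5 mice (13 probe sets in 4 groups), 6 held a mouse set apart from the other 4 by a gap larger than Dixon's 95% limit on the log2 scale; chance sets apart about 1 in 20 such sets. C1qa was high in α-tocopherol mouse 1, at 6076.7, where the other 4 lay between 4915.1 and 5182.8. C1qc was low in α-tocopherol mouse 2, at 2846.4, where the others lay between 3514.9 and 3786.5. Itgb2 was low in mixture mouse 5, at 307.2, against 540.6 to 591.2 in the other mixture mice. Itgb2 was also low in young control 2, at 91.4, against 260.1 to 374.0 in the other young controls. Cd59a by 1418710_at was high in mixture mouse 5, at 1416.8, against 1194.2 to 1246.6 in the other mixture mice. C3ar1 by 1419483_at was low in young control 2, at 164.4, against 248.0 to 292.2 in the other young controls.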

How the results depend on the processing

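With age, the 5 C1q probe sets kept their direction and passed under all 32 alternatives, with one exception in coverage: 1 probe set per gene tested only the brightest C1qb probe set, which left 3 member probe sets called and 3039 probe sets called in all. The lowest to highest log2 difference was 0.88 to 1.13 for C1qa, 1.07 to 1.28 for C1qb (1417063_at), 0.72 to 1.13 for C1qb (1437726_x_at), 0.58 to 0.88 for C1qb (1434366_x_at) and 0.97 to 1.18 for C1qc. With array medians set equal, 8 member probe sets were called with age; the β-actin covariate gave 2028 calls over all probe sets. By 1429830_a_at, the age difference of Cd59a lay between -0.0494 and 0.0852 in the fits that each left out 1 mouse, and was negative in 2 of them. Between old groups, 0 member probe sets were called under any alternative. Against young controls, 4 to 8 member probe sets were called for the mixture and 4 to 7 for α-tocopherol. Of 190 member differences recomputed per supplement against young controls, 6 for α-tocopherol and 2 for the mixture lost the call, all of C1qb (1437726_x_at) or Itgb2; Itgb2 for the mixture was lost with only the 2 groups in the fit (adjusted p = 0.0529). Without old control 3 and mixture mice 3 and 5, a choice made after the values were seen, 5 member probe sets were called with age. The replicate block gave 5 member and 5409 total calls with age and changed no member call. The labels do not say whether the sample numbers mark a shared batch. At most 2 of 5 same-numbered pairs had r over 0.1 (highest 0.203), and at most 3 of 5 correlated best with their own number. These values do not settle whether the numbers pair the mice. Dim signals (C3ar1, Itgam) limit what could be resolved.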
